A study of Homo sapiens with 4 samples.

Results

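ABC transporters are membrane proteins that bind and hydrolyse ATP in a conserved cassette and use that energy to move lipids, peptides, metabolites, drugs or metal conjugates across membranes. The genes described here are the 46 gene symbols, of 25411 genes in the tables, that consist of ABC, a subfamily letter from A to G and a number. The symbols alone decided which genes belong, but the family was chosen with earlier results of these data known. The genes fall into 7 subfamilies. RNA was sequenced from BEAS-2B, a line derived from normal human bronchial epithelium, in 2 libraries grown for 72 h with 5 µM cadmium chloride and 2 control libraries grown for 72 h without it. The study's title asks how cadmium changes the repressor gene SNAI1 through a microRNA. The comparison made here asks which ABC transporter transcripts differed between the cadmium and the control libraries.

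ABCA members carry cholesterol and phospholipids, ABCB members peptides, drugs and mitochondrial metabolites, and ABCC members conjugates of glutathione, glucuronate or sulfate, nucleotides and drugs. ABCD members bring fatty acids into peroxisomes, and ABCG members export sterols, drugs and urate. ABCE and ABCF proteins have the ATP cassettes but no membrane domain, and work on ribosomes and translation. ABC proteins have a known place in metal tolerance. In the yeast Saccharomyces cerevisiae the ABCC protein Ycf1 moves the glutathione conjugate of cadmium into the vacuole, and in Schizosaccharomyces pombe the ABCB protein Hmt1 is needed for cadmium tolerance. In the airway, CFTR is the chloride channel of the ABCC subfamily, and ABCA3 loads surfactant lipid in alveolar cells.

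The promoters of 4 members are shown because these genes moved in the comparison. ABCA1 and ABCA7 are close relatives and both rose, and ABCB6 and ABCB10 are both known from mitochondria and moved in opposite directions. Each line holds the 250 bases before the gene's start, from RefSeq in build GRCh38.p14, read along the gene's strand. They are chr9:104928156-104928405 on the minus strand for ABCA1, chr19:1039857-1040106 on the plus strand for ABCA7, chr2:219218959-219219208 on the minus strand for ABCB6 and chr1:229558708-229558957 on the minus strand for ABCB10. Capitals mark motif matches on either strand.
ABCA1: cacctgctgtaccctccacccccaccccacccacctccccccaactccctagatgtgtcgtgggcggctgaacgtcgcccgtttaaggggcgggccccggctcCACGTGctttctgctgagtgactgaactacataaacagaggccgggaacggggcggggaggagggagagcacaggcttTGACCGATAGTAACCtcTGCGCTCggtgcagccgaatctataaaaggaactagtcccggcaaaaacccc
ABCA7: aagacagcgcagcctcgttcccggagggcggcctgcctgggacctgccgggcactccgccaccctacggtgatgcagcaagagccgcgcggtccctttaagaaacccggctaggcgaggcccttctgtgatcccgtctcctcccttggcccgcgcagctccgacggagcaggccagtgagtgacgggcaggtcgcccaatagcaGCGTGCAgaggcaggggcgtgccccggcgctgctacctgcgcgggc
ABCB6: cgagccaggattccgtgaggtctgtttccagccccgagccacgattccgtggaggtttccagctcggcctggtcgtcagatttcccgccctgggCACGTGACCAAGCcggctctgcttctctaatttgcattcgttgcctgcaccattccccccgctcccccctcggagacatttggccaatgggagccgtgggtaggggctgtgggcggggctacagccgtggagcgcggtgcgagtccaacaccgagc
ABCB10: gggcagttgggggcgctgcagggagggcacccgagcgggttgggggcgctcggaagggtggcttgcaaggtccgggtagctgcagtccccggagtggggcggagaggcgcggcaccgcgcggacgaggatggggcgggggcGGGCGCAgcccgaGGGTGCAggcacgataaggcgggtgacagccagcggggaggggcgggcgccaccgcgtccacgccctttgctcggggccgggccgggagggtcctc

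The motifs searched were the core of the metal response element (TGCACNC and TGCGCNC), the core of the antioxidant response element (TGACNNNGC), the E-box CACGTG, a direct repeat with a spacer of the kind that the sterol receptor LXR binds and the sterol regulatory element. The table of promoters held 35 of the 46 members and 7 of the 8 members that passed the test below, and ABCG1 was not among them. The direct repeat lay from 69 to 55 bases before the start of ABCA1 on the opposite strand. It was found in 1 of the 35 member promoters and in 0.553% of 27305 promoters of the same length. ABCA1 also had an E-box from 147 to 142 bases and a metal response core from 52 to 46 bases before the start. In ABCB6 an E-box from 156 to 151 bases before the start shared its last bases with an antioxidant core from 152 to 144. ABCA7 had 1 metal response core and ABCB10 had 2. At least 1 metal response core was present in 14 of the 35 member promoters and in 24.7% of all promoters. Among the tested members it was present in 13 of 22, whether they passed or not, and in 5 of the 7 that passed. Its share among the promoters of all tested genes was not counted. The share over all promoters is no like measure for these tested members, and no enrichment is read from the counts. The antioxidant core was present in 6 of 35 and in 3013 of the 27305, the E-box in 4 of 35 and 6.49%, and the sterol regulatory element in 0 of 35 and 0.125%. The promoter of ABCG4 held none of these letters. A match is a run of letters and not a shown binding site.

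Reads assigned to genes numbered 29937242 and 15537382 in cadmium replicates 1 and 2, and 26529403 and 8609243 in control replicates 1 and 2. The smallest count that can be told from 0, taken as 3 reads, corresponded to 0.0980 and 0.190 CPM in the cadmium libraries and to 0.115 and 0.356 CPM in the controls. CPM are counts relative to a TMM-scaled library size, and such limits cover counting error only. The labels do not say whether replicates were separate cultures, so the p-values below reflect how much the 4 libraries vary, possibly for technical reasons alone. They name the controls experiment 1 and the cadmium libraries experiment 2, and if these were run apart, experiment and treatment cannot be told apart. In a bulk sample, less RNA per cell and fewer cells of a kind cannot be told apart either. Among bronchial epithelial markers, KRT8 had 587 and 617 CPM with cadmium and 540 and 649 CPM in the controls, whereas TP63 had 0 reads and KRT5 and KRT14 had 1 read each over all libraries. All 6 tested genes of the 10 on this list had positive log2 fold changes (median 1.40), and 2 passed. These were EPCAM (log2 fold change 1.36) and NGFR (log2 fold change 1.595, edgeR adjusted p = 0.0204), both at low levels, and both missed without cadmium replicate 1 (adjusted p = 0.0994 for EPCAM and 0.176 for NGFR). KRT17 had 118 and 74.2 CPM with cadmium and 21.2 and 38.5 CPM in the controls and did not pass (adjusted p = 0.0840). The summed level of the list was 965 and 986 CPM with cadmium and 769 and 957 CPM in the controls, and the part of this difference in the results below was not tested. By contrast, 5 fibroblast markers summed to 3265 and 3070 CPM with cadmium and 4381 and 3539 CPM in the controls. Of these, 2 were tested, with log2 fold changes of -0.64 and -0.32, and 0 passed. Any part of this difference in the results was not tested either. The summed level of 4 leukocyte markers was 12.2 and 8.42 CPM with cadmium and 7.14 and 11.6 CPM in the controls, with PTPRC at 3 reads with cadmium and 1 in control and CD3E at 0. ITGAM, 1 of these 4, rose on 44 reads with cadmium and 10 in the controls (edgeR adjusted p = 0.0490), a call held in 4 of 11 alternatives, and any part of such cells in the results was not tested.

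Of the 46 genes, 10 had 0 reads in all 4 libraries, 9 had up to 41 reads in all and were too low to test, and 27 were tested. The lowest value of a tested member in any library was 0.615 CPM. With cadmium 5 of the 27 rose and 3 fell, at a Benjamini-Hochberg adjusted p under 0.05 over all 13663 tested genes in edgeR's quasi-likelihood test. These are 18.5% and 11.1% of the tested members, against 8.85% and 7.66% of all tested genes. ABCA1, ABCA7, ABCB6, ABCG1 and ABCG4 rose, and ABCB10, ABCF1 and ABCF2 fell. ABCA1, ABCG1 and ABCG4, 3 of the 27, rose by more than 1 on the log2 scale, as 3.41% of all tested genes did. The median log2 fold change was 0.13 over the members (0.061 without cadmium replicate 1 and 0.065 with DESeq2) and 0.0019 over all tested genes. With scaling by total reads only, 6 members were higher and 0 lower, and 1445 of all genes were higher and 682 lower, against 1209 and 1046 with TMM. Higher members numbered 4 and 10 without control replicates 1 and 2, and 2 and 5 without cadmium replicates 1 and 2. Lower members numbered 1 and 4 without control replicates 1 and 2, and 0 without either cadmium replicate. ABCA1 and ABCG1 were the 2 members that passed under all 12 alternatives run. Among tested members with a mean under 10 CPM, 2 of 6 rose and 0 fell, where 10.7% and 1.34% of all such genes did. At 10 CPM or more 3 of 21 rose and 3 fell, where 8.07% and 10.3% of all such genes did. The median log2 fold change also differed by level. Under 10 CPM it was 0.997 over the 6 members and 0.236 over all such genes. At 10 CPM or more it was 0.029 over the 21 members and -0.042 over all such genes. The authors' deposited table, with its own adjusted p under 0.05, has 7 members higher and 3 lower, against 3.87% and 3.93% of its 25411 genes.

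**Figure D1:**
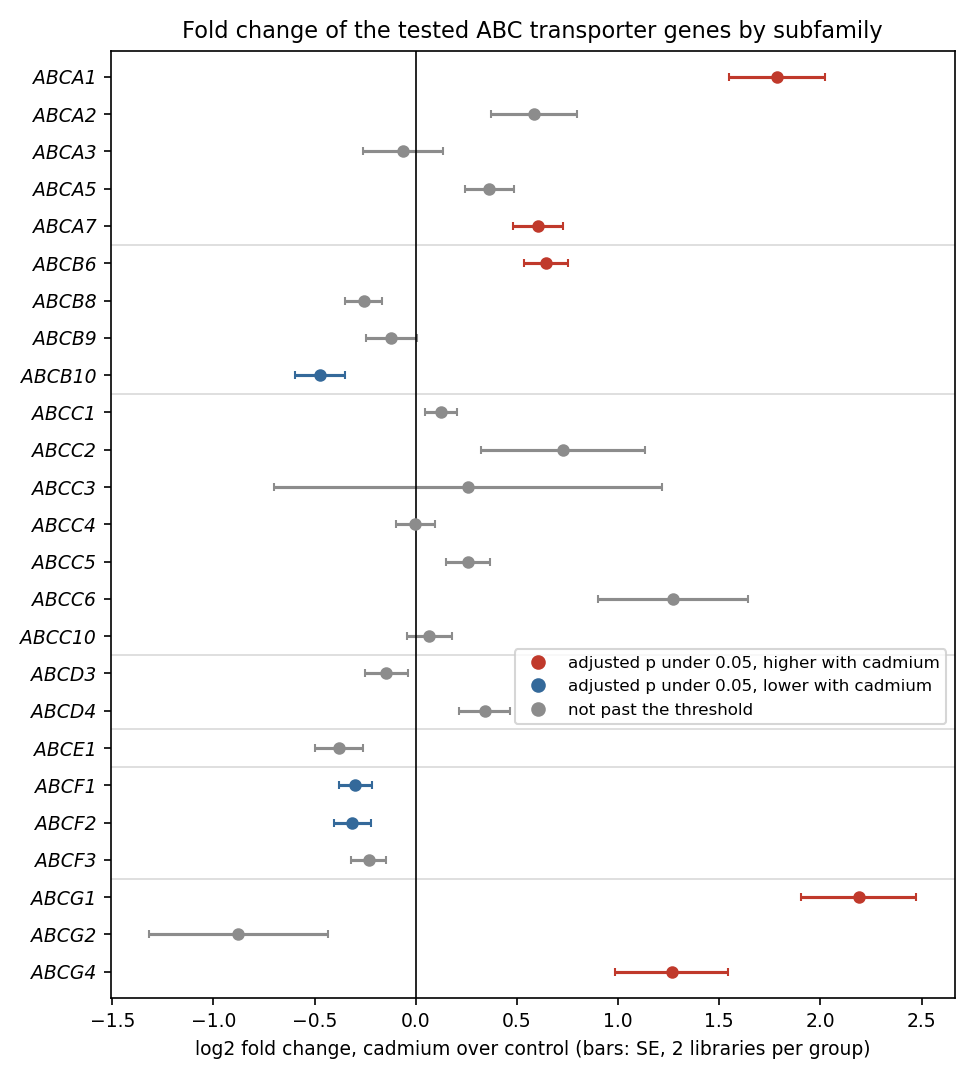
Log2 fold change of cadmium over control for 25 of the 27 tested genes, one row per gene, in subfamily order from ABCA at the top to ABCG at the bottom, with the SE as bars (2 libraries per group). ABCG1 at 2.19 and ABCA1 at 1.78 lie farthest to the right, and the 4 ABCE and ABCF genes all lie left of 0.

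The cholesterol exporters ABCA1 and ABCG1 had the largest fold changes of the tested members. ABCA1 (chromosome 9, 107543284 to 107690527 in hg19, minus strand), which loads cholesterol and phospholipid onto lipid-poor apolipoprotein A-I, had 694 and 460 reads with cadmium and 157 and 82 reads in the controls. That is 22.7 and 29.1 CPM with cadmium and 6.03 and 9.74 CPM in the controls, or 25.9 ± 4.55 against 7.89 ± 2.62 CPM (SD, n = 2 each). Each cadmium library lay above each control, and the log2 fold change was 1.78 (SE 0.24, edgeR adjusted p = 0.00626). ABCG1 (chromosome 21, 43640008 to 43717354, plus strand), which passes cholesterol to mature HDL particles, had 304 and 167 reads with cadmium and 45 and 27 in the controls. Its level was 9.93 and 10.6 CPM with cadmium and 1.73 and 3.21 CPM in the controls. The groups lay apart, with a log2 fold change of 2.19 (SE 0.29, edgeR adjusted p = 0.00493), the largest of the 27. Leaving out 1 library at a time moved ABCA1 between 1.40 and 2.08 and ABCG1 between 1.67 and 2.55 on the log2 scale, lowest in both cases without control replicate 1. In RPKM, which divides by gene length, ABCA1 reached 1.93 and 2.45 with cadmium and 0.5003 and 0.808 in the controls, and ABCG1 3.003 and 3.15 with cadmium and 0.520 and 1.02 in the controls. Both levels were well under that of the lipid transporter gene ABCA2, at 20.8 and 17.9 RPKM with cadmium and 10.1 and 15.4 RPKM in the controls.

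ABCG4, a sterol exporter gene known mainly from brain, also rose from a low level. It had 147 and 65 reads with cadmium and 43 and 19 reads in the controls, or 4.80 and 4.11 CPM with cadmium and 1.65 and 2.26 CPM in the controls. The log2 fold change was 1.26 (SE 0.28, edgeR adjusted p = 0.0213). Of the 12 alternatives ABCG4 could be tested in 11, and it passed in 7. It missed the threshold with DESeq2 (adjusted p = 0.0571), and when control replicate 1 (adjusted p = 0.0846), cadmium replicate 1 (adjusted p = 0.165) or cadmium replicate 2 (adjusted p = 0.0556) was left out. ABCG2, the exporter of urate and many drugs, went the other way among ABCG genes but did not pass. It had 19 and 11 reads with cadmium and 25 and 14 in the controls (log2 fold change -0.88, SE 0.44, edgeR adjusted p = 0.202). The sterol exporter genes of gut and liver were at or near 0, with 0 reads for ABCG5 and 1 read for ABCG8, in cadmium replicate 1.

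**Figure D2:**
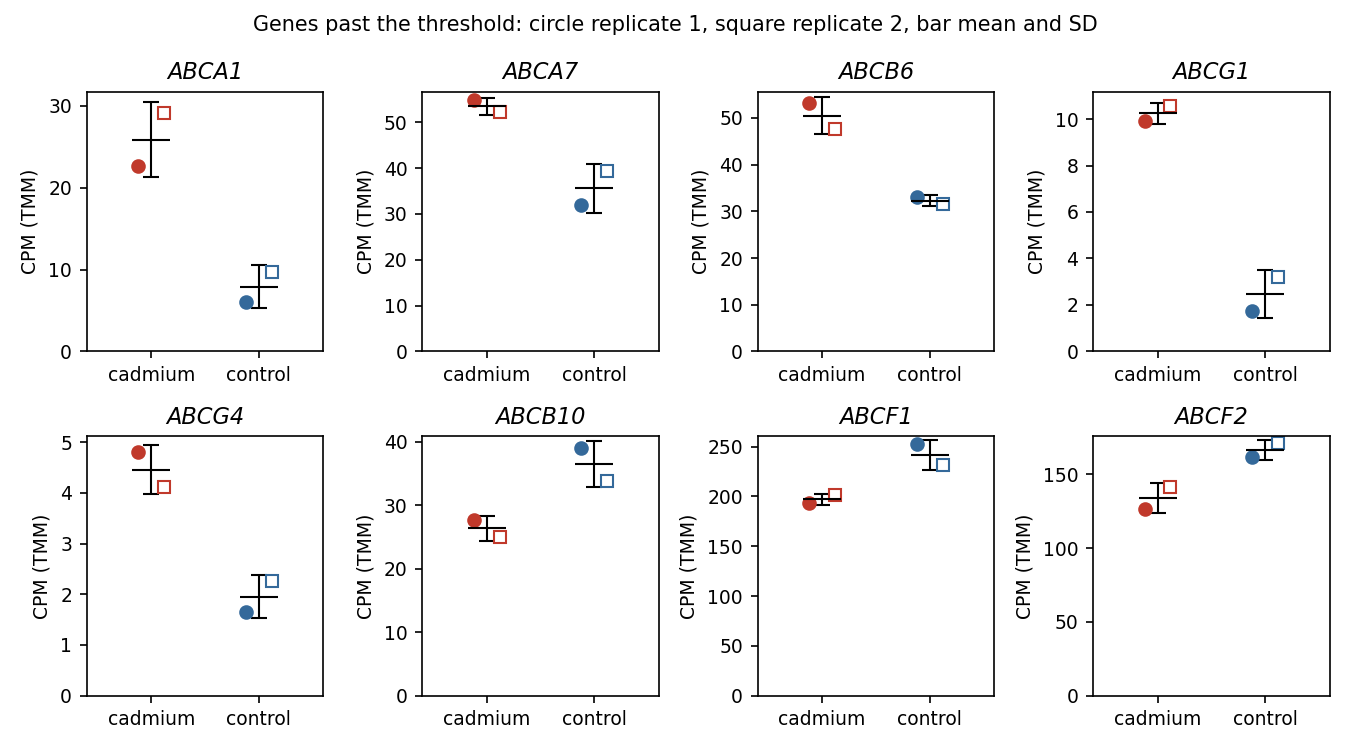
CPM of the 8 genes that passed the test, cadmium left of control in each panel, with circles for replicate 1, squares for replicate 2 and bars for the mean and SD; each vertical axis starts at 0. The groups do not overlap in any of the 8 panels, which is likely for genes picked by the test. The gap is widest in proportion for ABCG1 and ABCA1.

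Of 12 ABCA genes, 5 were tested, 2 rose and 0 fell. ABCA7 (chromosome 19, 1040102 to 1065570), a relative of ABCA1 that moves phospholipid, had 54.8 and 52.2 CPM with cadmium and 31.8 and 39.3 CPM in the controls. Its log2 fold change of 0.61 (SE 0.12, edgeR adjusted p = 0.0166) held in 11 of 12 alternatives and missed the threshold without cadmium replicate 1 (adjusted p = 0.0764). ABCA2, an endosomal and lysosomal lipid transporter gene with the highest level per length of the subfamily, had 189.9 and 165.0 CPM with cadmium and 94.5 and 144 CPM in the controls. The controls differed from each other by about as much as the groups did, and ABCA2 did not pass (log2 fold change 0.58, SE 0.21, edgeR adjusted p = 0.122). Without control replicate 2 its log2 fold change was 0.90 (adjusted p = 3.06e-05), and DESeq2 gave an adjusted p of 0.00701 and limma-voom one of 0.0361. The log2 fold change was 0.30 without control replicate 1 (adjusted p = 0.0911) and 0.48 without cadmium replicate 1 (adjusted p = 0.462), and ABCA2 passed in 4 of 12 alternatives. The authors' deposited table gives ABCA2 a log ratio of 0.51 and an adjusted p of 0.0104. ABCA5, a lysosomal member, had 26.7 and 25.7 CPM with cadmium and 19.7 and 21.3 CPM in the controls, a small difference that did not pass (adjusted p = 0.0738). It passed without control replicate 2 (adjusted p = 0.0368). ABCA3 did not separate the groups, with 60.4 and 44.2 CPM with cadmium and 47.0 and 64.0 CPM in the controls (log2 fold change -0.061, SE 0.20, edgeR adjusted p = 0.862).

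The other 7 ABCA genes were at or near 0. ABCA8, a lipid transporter gene, had 29 and 7 reads with cadmium and 4 and 1 in the controls, too few for the filter. With no filter its log2 fold change was 2.30 (SE 0.75, edgeR adjusted p = 0.0276). ABCA8 was also tested when a library was left out, with adjusted p = 0.177 and 0.0481 without control replicates 1 and 2 and 0.0662 in the fit lacking cadmium replicate 2, and DESeq2 gave it no adjusted p (unadjusted p = 0.0841). ABCA10 had 8 and 2 reads with cadmium and 8 and 4 in the controls, and its first 381 bases overlap the end of ABCA5 on the same strand. ABCA12, which loads lipid for the skin barrier, had 5 and 0 reads with cadmium and 8 and 0 in the controls, so each group had reads in its deeper library alone. ABCA4 and ABCA6 had at most 2 reads in any library, and ABCA9 and ABCA13 had 0.

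Of 9 ABCB genes, 5 were tested, and ABCB6 rose while ABCB10 fell. ABCB6 (chromosome 2, 220074488 to 220083712, minus strand), a porphyrin transporter gene that also sets the Langereis blood group, had 53.2 and 47.7 CPM with cadmium and 33.1 and 31.5 CPM in the controls. The spread within each group was small beside the difference, with means of 50.5 ± 3.91 and 32.3 ± 1.13 CPM (SD, n = 2 each) and a log2 fold change of 0.64 (SE 0.11, edgeR adjusted p = 0.0103). The call for ABCB6 was lost in 1 of 12 alternatives, without cadmium replicate 1 (adjusted p = 0.0723). ABCB10 (chromosome 1, 229652329 to 229694442, minus strand), a protein of the inner mitochondrial membrane needed for heme synthesis in red cell precursors, had 27.7 and 24.9 CPM with cadmium and 39.0 and 33.9 CPM in the controls. It fell by 0.47 on the log2 scale (SE 0.12, edgeR adjusted p = 0.0364). The call for ABCB10 held in 8 of 12 alternatives, among them without control replicate 2 (adjusted p = 0.00399). It missed without control replicate 1 (adjusted p = 0.113), without cadmium replicate 1 (adjusted p = 0.121) and 2 (adjusted p = 0.221), and with library size alone (adjusted p = 0.0579). ABCB8, a further inner-membrane member, had 70.6 and 72.3 CPM with cadmium and 82.7 and 88.5 CPM in the controls (log2 fold change -0.26, SE 0.091, edgeR adjusted p = 0.0872). The lysosomal peptide transporter gene ABCB9 overlapped between the groups, with 24.9 and 23.9 CPM with cadmium and 28.3 and 24.4 CPM in the controls.

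ABCB1, which encodes the drug pump P-glycoprotein, had 0 reads in all 4 libraries, as did ABCB5 and the bile salt pump gene ABCB11. A count of 0 allows up to 0.0980 and 0.190 CPM in the cadmium libraries and 0.115 and 0.356 CPM in the controls. ABCB4, the phospholipid exporter gene of bile, had 1 read, in cadmium replicate 1. The family also includes genes with other symbols. TAP1 and TAP2, which feed peptides to MHC class I, were among the better expressed, at 40.4 and 37.0 RPKM with cadmium and 41.8 and 36.4 RPKM in the controls for TAP1. Neither passed (log2 fold change -0.051 and adjusted p = 0.754 for TAP1, -0.15 and adjusted p = 0.233 for TAP2). TAP1 turned to 0.0074 with library size alone. CFTR had 0 reads in every library.

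Of 12 ABCC genes, 7 were tested and 0 passed in edgeR, while 2 had an unadjusted p under 0.05. DESeq2 and limma-voom each called ABCC6 higher and no other ABCC gene. ABCC1, which exports glutathione and glutathione conjugates, had the highest level per length among ABCC genes, at 26.0 and 26.9 RPKM with cadmium and 23.4 and 24.1 RPKM in the controls. Both cadmium libraries lay above both controls by a margin that did not pass (190.6 and 199.7 CPM against 176 and 181 CPM, log2 fold change 0.13, SE 0.079, edgeR adjusted p = 0.300). ABCC5, an exporter of cyclic nucleotides and heme, had 77.0 and 90.1 CPM with cadmium and 72.1 and 67.1 CPM in the controls (log2 fold change 0.26, SE 0.11, edgeR adjusted p = 0.132). ABCC4, which exports cyclic nucleotides and prostaglandins, had 53.9 and 54.9 CPM with cadmium and 53.0 and 56.2 CPM in the controls. Its log2 fold change was -0.0024 with an SE of 0.097, the closest to 0 of the 27, and its sign turned with library size alone (0.056). ABCC10, a drug exporter gene that overlaps DLK2 on the other strand by 74 bases, also overlapped between the groups (log2 fold change 0.068, adjusted p = 0.717).

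ABCC3, ABCC6 and ABCC2 had low levels, and none of them passed. ABCC3, an exporter of glucuronides and bile salts, had 162 and 44 reads with cadmium and 32 and 59 in the controls, or 5.29 and 2.78 CPM with cadmium and 1.23 and 7.01 CPM in the controls. The highest and the lowest value were both controls, and the log2 fold change of 0.26 had an SE of 0.96. Without control replicate 2 it was 1.75 (adjusted p = 0.00767) and without control replicate 1 it was -0.74, so its direction rests on which control is used. ABCC6, the gene of pseudoxanthoma elasticum, had 254 and 70 reads with cadmium and 57 and 30 in the controls, or 8.30 and 4.43 CPM with cadmium and 2.19 and 3.56 CPM in the controls. Its log2 fold change of 1.27 (SE 0.37) missed the threshold narrowly (adjusted p = 0.0530), and it passed in 7 of the 11 alternatives that tested it. Without cadmium replicate 1 it was 0.69 (adjusted p = 0.405), and without cadmium replicate 2 it was 1.602 (adjusted p = 0.0137). Without control replicate 2 the adjusted p was 0.0150. In RPKM the groups of ABCC6 overlapped, at 1.83 and 0.771 with cadmium and 0.462 and 0.787 in the controls. ABCC6 has the near-identical pseudogene copies ABCC6P1 and ABCC6P2, so its count is uncertain. ABCC2, the exporter of conjugates into bile, had 36 and 17 reads with cadmium and 16 and 7 in the controls and did not pass (log2 fold change 0.73, SE 0.41, edgeR adjusted p = 0.245). ABCC8 and ABCC9, the sulfonylurea receptors of potassium channels, had 0 reads, as did ABCC12 and ABCC13, and ABCC11 had 4 reads in cadmium replicate 1 alone.

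Of 4 ABCD genes, 3 were tested and 0 passed in edgeR, DESeq2 or limma-voom, and 1 had an unadjusted p under 0.05. ABCD3, which carries branched-chain acids and bile acid precursors into peroxisomes, had 46.4 and 50.8 CPM with cadmium and 55.8 and 51.1 CPM in the controls (log2 fold change -0.14, SE 0.11, edgeR adjusted p = 0.372). The RPKM for ABCD3 show a wider difference, with a log2 ratio of -0.32 between the group means. The length by which the authors' RPKM divide reads for ABCD3 varied 1.26-fold between libraries, and it varied 1.32-fold for ABCC6 and 1.11-fold for ABCG1. ABCD4, which moves vitamin B12 out of lysosomes, had 31.5 and 27.3 CPM with cadmium and 22.5 and 24.2 CPM in the controls (log2 fold change 0.34, SE 0.13, edgeR adjusted p = 0.0981). ABCD2 had 1 read, in cadmium replicate 2.

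All 4 genes without a membrane domain had a log2 fold change under 0, and ABCF1 and ABCF2 passed. ABCF1, which binds the initiation factor eIF2, had the highest level per length of all members, 50.9 and 52.4 RPKM with cadmium and 65.0 and 59.4 RPKM in the controls. In CPM it had 193 and 201 with cadmium and 253 and 231 in the controls, and it fell by 0.30 on the log2 scale (SE 0.083, edgeR adjusted p = 0.0439). ABCF2 had 127 and 141 CPM with cadmium and 162 and 171 CPM in the controls and fell by 0.31 (SE 0.090, edgeR adjusted p = 0.0486). ABCF3 had 105 and 114 CPM with cadmium and 130 and 127 CPM in the controls (log2 fold change -0.23, SE 0.087, edgeR adjusted p = 0.100). ABCE1, which splits ribosomes after termination, had 46.4 and 55.1 CPM with cadmium and 69.4 and 61.5 CPM in the controls (log2 fold change -0.38, SE 0.12, edgeR adjusted p = 0.0616). In each of these 4 genes both cadmium libraries lay below both controls, as they also did in ABCB8, ABCB10, ABCD3 and ABCG2. How often all tested genes separate in this way was not counted, so no weight is put on it. ABCE1 shares 538 bases with ANAPC10 on the other strand, which had 178 and 71 reads with cadmium and 151 and 40 in the controls, few beside the 1419 and 870 reads with cadmium and 1807 and 518 in the controls of ABCE1. These differences are small and their calls were lost under several alternatives. ABCF1 passed in 6 of 12, missing without control replicate 1 (adjusted p = 0.113) and without cadmium replicates 1 (adjusted p = 0.283) and 2 (adjusted p = 0.158). ABCF2 passed in 7 of 12, missing without cadmium replicates 1 (adjusted p = 0.378) and 2 (adjusted p = 0.0959). ABCE1 passed in 4, among them limma-voom (adjusted p = 0.0467) and the fit that left out control replicate 2 (adjusted p = 0.0105).

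**Figure D3:**
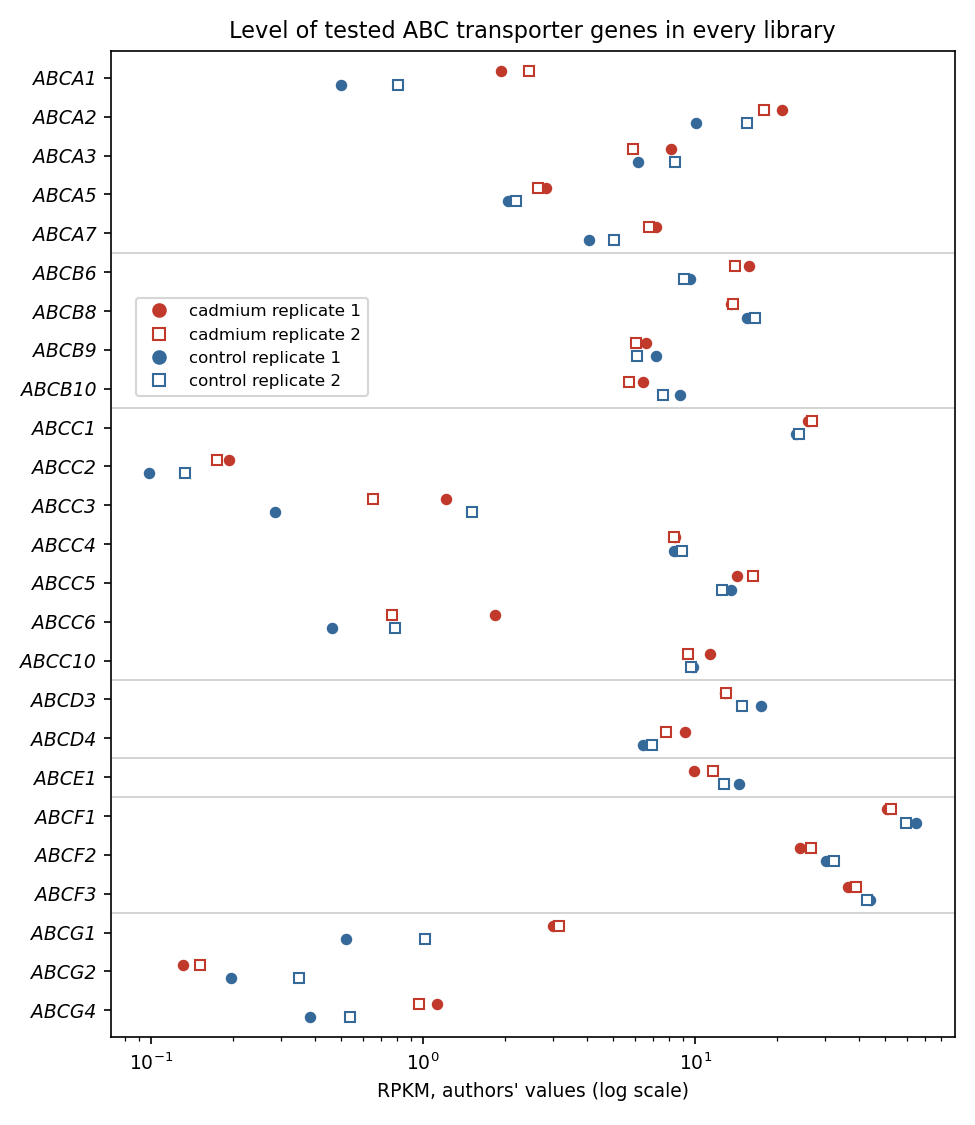
RPKM as deposited, on a log scale, for 25 of the 27 tested genes in every library, with cadmium drawn above control in each row, circles for replicate 1 and squares for replicate 2. ABCF1, ABCF3, ABCF2 and ABCC1 lie farthest right, and the controls of ABCC3 stand far apart at 0.284 and 1.52 RPKM.

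Ordered by RPKM averaged over the 4 libraries, ABCF1 (56.9) and ABCF3 (40.6) came first, followed by ABCF2 (28.4), ABCC1 (25.1), ABCA2 (16.1), ABCB8 (14.8), ABCD3 (14.5), ABCC5 (14.2), ABCE1 (12.2) and ABCB6 (12.1). The positions of ABCF2 and ABCC1 overlap, since ABCF2 had 24.4 and 26.6 RPKM with cadmium and ABCC1 26.0 and 26.9 RPKM. In the controls ABCF2 was higher, at 30.2 and 32.3 RPKM against 23.4 and 24.1 RPKM for ABCC1. The place of ABCA2 depends on the group, since it lay above ABCB8 with cadmium (20.8 and 17.9 RPKM against 13.6 and 13.7) and below it in the controls (10.1 and 15.4 RPKM against 15.5 and 16.5). ABCB8, ABCD3 and ABCC5 also lay within each other's range. ABCB6 and ABCE1 exchanged places between the groups, with ABCB6 at 15.8 and 14.0 RPKM and ABCE1 at 9.90 and 11.6 RPKM with cadmium, and ABCB6 at 9.55 and 9.08 RPKM and ABCE1 at 14.4 and 12.8 RPKM in the controls. Summed over all 46 genes, the level was 314 and 313 RPKM with cadmium and 316 and 319 RPKM in the controls. The sums differed little while the make-up did. ABCF genes gave 35.6% and 37.8% of the sum with cadmium and 44.1% and 42.2% in the controls. ABCA genes gave 13.1% and 11.4% with cadmium and 7.29% and 10.04% in the controls. Their sums were 41.2 and 35.8 RPKM with cadmium and 23.0 and 32.0 RPKM in the controls. The largest part of each was ABCA2, which did not pass and whose controls lay far apart. ABCG genes gave 1.36% in each cadmium library and 0.349% and 0.598% in the controls. ABCC genes gave 20.1% and 20.0% with cadmium and 17.7% and 18.1% in the controls. These shares are a description of 2 libraries per group, without a test.

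**Figure D4:**
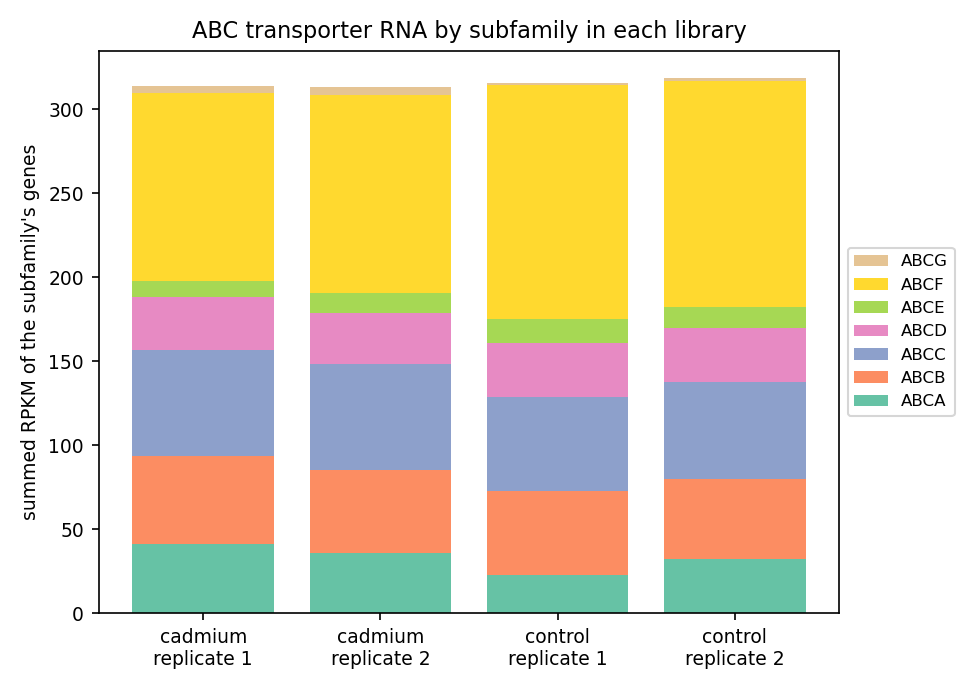
Summed RPKM of the ABC transporter genes in each library, stacked by subfamily from ABCA at the bottom to ABCG at the top, the 2 cadmium libraries left of the 2 controls. The 4 columns are of nearly equal height, from 313 to 319 RPKM, while the ABCF segment is lower and the ABCA segment higher in the cadmium libraries.

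Genes around these transporters were taken from fixed lists, chosen with earlier results of these data known. Of all tested genes 8.85% rose and 7.66% fell, and of those at 10 CPM or more 8.07% rose and 10.3% fell. Among 10 tested genes of cholesterol uptake and efflux 4 rose and 0 fell, among them ABCA1 and ABCG1 themselves. NPC1, the lysosomal cholesterol exporter gene, had 161 and 176 CPM with cadmium and 112 and 108 CPM in the controls (log2 fold change 0.61, SE 0.087, edgeR adjusted p = 0.00635) and passed under all 12 alternatives. MYLIP, a ubiquitin ligase gene of cholesterol uptake, had 22.0 and 22.4 CPM with cadmium and 16.2 and 21.0 CPM in the controls and did not pass (adjusted p = 0.242). Among 14 tested regulators of ABC genes 2 rose and 1 fell. PPARA, a fatty acid receptor, rose by 0.77 (SE 0.12, edgeR adjusted p = 0.00834) and passed under all 12 alternatives. SREBF2, the regulator of cholesterol synthesis, rose by 0.32 (adjusted p = 0.0229), and KEAP1, the inhibitor of NRF2, fell by 0.46 on the log2 scale (edgeR adjusted p = 0.0113). Without cadmium replicate 1 or 2 neither SREBF2 (adjusted p = 0.144 and 0.117) nor KEAP1 (adjusted p = 0.0702 and 0.0519) passed. The LXR genes NR1H3, at 16.3 and 14.1 CPM with cadmium and 10.1 and 12.4 CPM in the controls (adjusted p = 0.0937), and NR1H2 (log2 fold change 0.029, adjusted p = 0.830) did not pass. The xenobiotic receptor gene NR1I2 had 0 reads, and NFE2L2, which encodes NRF2, had a log2 fold change of -0.10 (edgeR adjusted p = 0.479).

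Of 17 tested genes of heme and iron-sulfur cluster synthesis, beside the mitochondrial ABCB genes, 0 rose and 3 fell. Among all tested genes 7.66% fell, and among those at 10 CPM or more 10.3% did. GLRX5, which passes on iron-sulfur clusters, had 41.5 and 43.6 CPM with cadmium and 59.4 and 60.0 CPM in the controls (log2 fold change -0.49, SE 0.097, edgeR adjusted p = 0.0153). FDX1, an electron carrier, had 19.7 and 19.0 CPM with cadmium and 32.1 and 25.9 CPM in the controls (log2 fold change -0.60, SE 0.14, edgeR adjusted p = 0.0244). GLRX5 and FDX1 both missed the threshold when cadmium replicate 1 (adjusted p = 0.126 for GLRX5 and 0.117 for FDX1) or 2 (adjusted p = 0.0619 for GLRX5 and 0.106 for FDX1) was left out, and FDX1 also without control replicate 1 (adjusted p = 0.0801). SLC25A37, the mitochondrial iron importer that binds ABCB10, had 51.4 and 51.3 CPM with cadmium and 40.6 and 42.9 CPM in the controls and did not pass (adjusted p = 0.0699). Of 9 tested genes of glutathione synthesis and recycling, GGT1 rose by 1.21 (edgeR adjusted p = 0.0237) and 0 fell past the threshold. The log2 fold change was positive in 3 of the 9 and negative in 6, the lowest at -1.33. GGT1 passed in 8 of 11 alternatives and missed with DESeq2 (adjusted p = 0.0868) and without cadmium replicates 1 (adjusted p = 0.159) and 2 (adjusted p = 0.0908) and has related copies that could share its reads. Of 8 tested partners of ABCE1 and ABCF proteins 0 rose and 2 fell. EIF6, which keeps ribosomal subunits apart, fell by 0.53 on the log2 scale (edgeR adjusted p = 0.00734) and passed under all 12 alternatives, and the release factor gene ETF1 fell by 0.41 (adjusted p = 0.0135) but missed without cadmium replicate 1 (adjusted p = 0.119). Of 17 peroxisomal genes beside ABCD 0 passed in edgeR, with 2 at an unadjusted p under 0.05, and of 9 genes of MHC class I peptide loading 0 passed, with 2 at an unadjusted p under 0.05. The medians of these lists ran from -0.12 for glutathione to 0.44 for cholesterol, beside 0.0019 over all tested genes. The cholesterol list includes ABCA1 and ABCG1, so its median is not independent of the members.

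**Figure D5:**
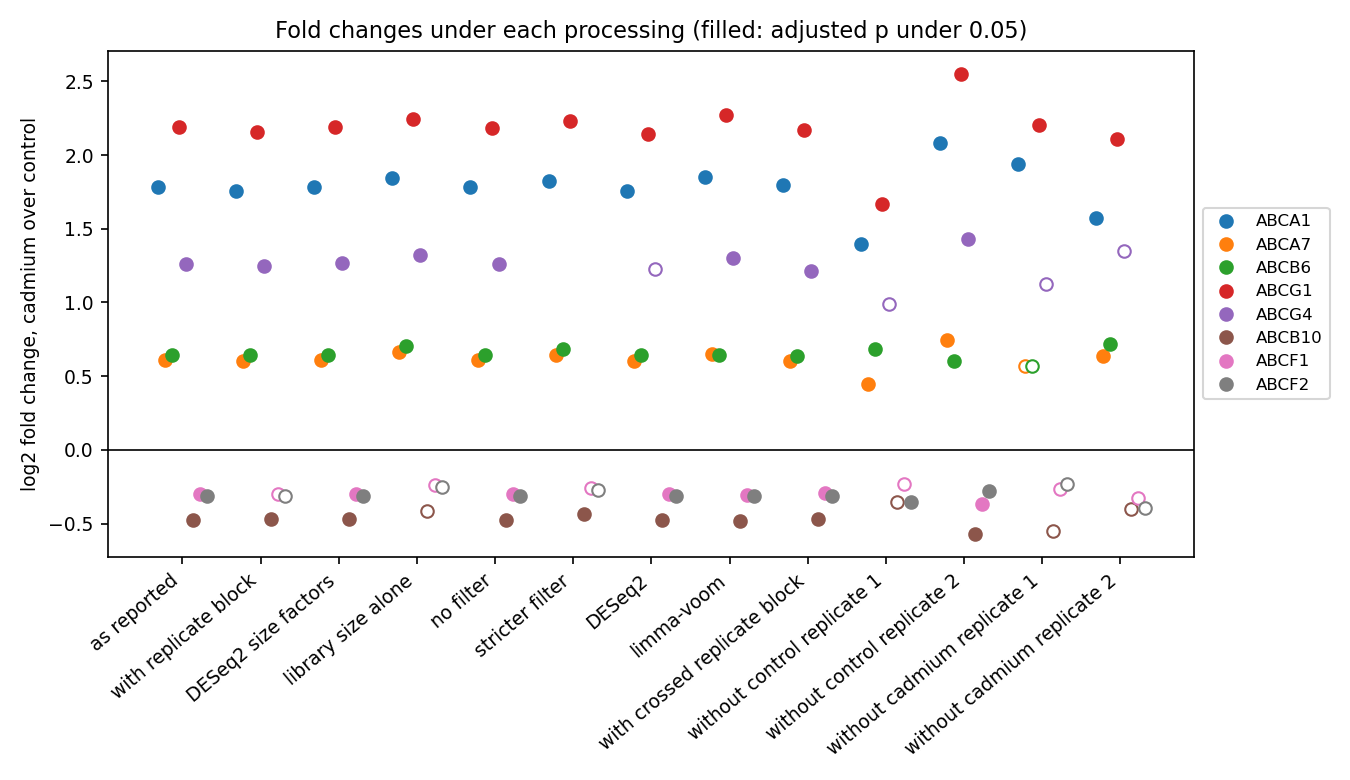
Log2 fold change of the 8 genes that passed, under the processing as reported and 12 alternatives along the horizontal axis, filled where the adjusted p was under 0.05. ABCG1 and ABCA1 stay filled in every column, and ABCB10, ABCF1 and ABCF2 keep values under 0 but lose the fill in several.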

How the data were processed

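The authors deposited, per the file headers, a whole-number count for every RefSeq gene in each library, and RPKM alongside. Their comparison table, per the file headers, holds mean RPKM, a log ratio read here as log2, p-values and adjusted p-values. The submitters' processing notes name hg19 as build and STAR 2.4, DESeq and DESeq2 as tools, without roles. How reads were counted, by which annotation and whether by strand, is not given in the sources here. Coordinates of genes are hg19 as deposited, and promoter sequences are GRCh38.p14 from RefSeq.

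Counts were joined by RefSeq identifier and tested over all genes in R 4.3.3 with edgeR 4.0.16 (filterByExpr, TMM, robust glmQLFit and glmQLFTest, group alone), with Benjamini-Hochberg adjustment and a threshold of 0.05. The SE comes from the F statistic. The fit was also run on counts simulated from its own fitted dispersion, with larger changes than those of ABCF1, ABCF2 or ABCB10. Such counts follow the assumptions of the fit, so nothing is concluded from them about the real libraries. The alternatives were DESeq2 1.42.0, a block for replicate number, scaling by DESeq2 size factors or by library size only, testing unfiltered genes, a minimum of 5 CPM in 2 libraries, limma-voom (limma 3.58.1) and leaving out each library. A crossed replicate block was added after seeing the data, which makes 12 in all.

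Members and lists were chosen with earlier results of these data known. Named genes were all members that passed, the highest and the most changed per subfamily, members by role, members at 0, TAP1, TAP2 and CFTR, and up to 4 passing genes per list. A few genes that enter the fits, counts and sums are not reported here by name.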

Additional observations from a re-analysis of the deposited data

How the results depend on the processing

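ABCA1 and ABCG1 kept their direction and call under the 12 alternatives run. Lower members numbered 1 with the replicate block, 1 with the stricter filter and 0 when scaled by library size alone, against 3. Over all tested genes the lower calls in these fits numbered 811, 774 (of 10929 tested) and 682, against 1046 of 13663. Leaving out 1 library gave from 2 to 10 higher and from 0 to 4 lower members, and from 369 to 1977 higher and from 235 to 1791 lower among all genes, against 682 lower with library size alone. The member median of 0.13 was 0.25 with no filter, which adds 9 members of very few reads, 0.065 with DESeq2 over the same 27 members, and between 0.061 (without cadmium replicate 1) and 0.17 (without control replicate 2) with 1 library left out. Signs turned for genes near 0. ABCC4 was 0.0041 with limma-voom, 0.036 with the stricter filter and 0.056 when scaled by library size alone. ABCA3 was 0.0043 with limma-voom, ABCC3 -0.0093 with DESeq2 and TAP1 0.0074 with library size alone. Leaving out 1 library moved ABCA3 from -0.31 to 0.16, ABCB9 from -0.22 to 0.0035, ABCC3 from -0.74 to 1.75, ABCC4 from -0.048 to 0.028, ABCC10 from -0.065 to 0.19 and TAP1 from -0.15 to 0.054. The cause of these changes was not tested. The labels do not say that replicate numbers pair the libraries, so the block is given here only. Same-numbered deviations had a correlation of -0.21 over 13663 genes, but so few libraries cannot exclude pairing. With the crossed pairing, 7 members were higher and 4 lower, and of all tested genes 1551 were higher and 1471 lower. Depth limits the low genes most, with 3 reads at 0.356 CPM in control replicate 2.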
